A study of Mus musculus with 4 samples.

Results

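The genes of MHC class I and class II antigen presentation were described in 4 bulk mRNA-seq libraries of mouse liver. Members were taken by name: every gene of the deposited table whose symbol starts with H2-, together with B2m, Tap1, Tap2, Tapbp, Tapbpl, Erap1, Nlrc5, Ciita, Cd74, Cd1d1, Mr1, Calr and Pdia3. This gave 34 of the 13903 genes of the table, 21 by the H2- symbol and 13 named singly. By role, 22 belong to the class I route, 10 to the class II route and 2 (Cd1d1 and Mr1) encode MHC-like molecules. On the GENCODE M21 annotation, 24 of the 34 lie on chromosome 17.

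All mice were OGT-Floxed on the C57BL/6J background and were fed CDE, a choline-deficient, ethionine-supplemented diet that injures the liver. OGT is O-GlcNAc transferase, the enzyme that attaches O-GlcNAc to proteins. Livers labelled OGT-KO came from mice given AAV8-TBG-CRE, and those labelled Control from mice given AAV8-TBG-eGFP. The TBG promoter is active in hepatocytes, so Ogt of the other liver cells was not targeted. Liver was taken with No Recovery after the diet or at 7 Day recovery. Each condition has 1 library made from equally pooled RNA of 3 mice, so the design allows no replicate error, no test and no p-value, and the values compare pools. The labels used here give no age.

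The libraries held 19972699 to 22866431 reads on the listed genes, and 3 reads correspond to 0.131 to 0.150 CPM (reads per 1000000 reads of its library). Hepatocyte markers (10 genes, among them Alb and Ttr) summed to 54630 to 86520 CPM, and all 10 were detected in every library. Ogt itself was at 64.7 CPM in the control and 55.3 CPM in the OGT-KO-labelled library with no recovery. After 7 days it was at 55.7 CPM in the control and 77.7 CPM in the OGT-KO-labelled library, against the direction of the label. The gene total does not separate the floxed exons from the rest of the transcript, so every direction between labels given here is that of the OGT-KO-labelled library.

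MHC molecules display peptides to T cells. In the class I route, peptides cut by the proteasome are pumped into the endoplasmic reticulum by Tap1 and Tap2 and loaded on a heavy chain that pairs with beta-2 microglobulin (B2m), a route used by nearly every nucleated cell. In the class II route, an alpha and a beta chain assemble on the invariant chain (Cd74), travel to endosomes and exchange its remnant for a peptide with the help of H2-DM, a route used mainly by dendritic cells, macrophages and B cells. NLRC5 is the transactivator of class I genes and CIITA that of class II genes, and both act at promoters that share a module of X and Y boxes. In liver, sinusoidal cells and Kupffer cells present antigen beside hepatocytes, which also secrete the class Ib protein H2-Q10.

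Promoters of 7 members are shown because the results turn on how class II genes, class I chains and H2-Q10 differed. They include every member found with the X box string or the kappa B string described next, so they do not represent all members. Each is the 200 bases before the RefSeq transcription start on GRCm38.p6, 5′ to 3′ on the gene's strand, and capitals mark matches to 4 letter strings on either strand: CCAAT (the Y box), TGATGA (part of the X2 box), an X box string that overlaps TGATGA (AAC followed after any base by GATG, and preceded at the same distance by AG) and the kappa B string of the class I enhancer A (ATT directly between 4 G and 4 C). The deposited values were made on GRCm39, and no coordinate was carried over between builds.

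The class II promoters were those of H2-Eb1 (chr17:34305667-34305866, plus strand), H2-DMb1 (chr17:34152991-34153190, plus strand) and H2-Aa (chr17:34287824-34288023, minus strand):
H2-Eb1: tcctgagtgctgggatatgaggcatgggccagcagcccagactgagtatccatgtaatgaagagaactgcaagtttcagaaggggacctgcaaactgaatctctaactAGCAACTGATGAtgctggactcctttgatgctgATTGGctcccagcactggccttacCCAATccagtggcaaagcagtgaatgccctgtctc
H2-DMb1: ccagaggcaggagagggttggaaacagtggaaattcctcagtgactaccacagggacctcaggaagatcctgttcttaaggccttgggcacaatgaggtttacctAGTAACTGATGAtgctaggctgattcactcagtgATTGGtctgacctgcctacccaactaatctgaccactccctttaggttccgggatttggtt
H2-Aa: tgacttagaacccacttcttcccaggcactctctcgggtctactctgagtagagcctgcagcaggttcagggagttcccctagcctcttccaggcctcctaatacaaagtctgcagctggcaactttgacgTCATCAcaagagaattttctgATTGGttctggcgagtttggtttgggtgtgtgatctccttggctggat

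The class I promoters were those of H2-D1 (chr17:35262894-35263093, plus strand), H2-K1 (chr17:34000348-34000547, minus strand, the first of 2 starts listed), H2-Q6 (chr17:35424650-35424849, plus strand) and H2-Q10 (chr17:35469889-35470088, plus strand):
H2-D1: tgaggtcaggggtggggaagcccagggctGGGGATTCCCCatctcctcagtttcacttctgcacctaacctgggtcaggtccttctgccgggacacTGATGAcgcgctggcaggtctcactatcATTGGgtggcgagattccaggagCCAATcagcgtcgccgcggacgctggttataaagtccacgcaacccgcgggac
H2-K1: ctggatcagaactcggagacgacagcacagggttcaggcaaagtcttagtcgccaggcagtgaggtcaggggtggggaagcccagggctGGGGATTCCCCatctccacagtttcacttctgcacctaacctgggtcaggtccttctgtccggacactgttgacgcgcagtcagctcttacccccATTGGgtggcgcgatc
H2-Q6: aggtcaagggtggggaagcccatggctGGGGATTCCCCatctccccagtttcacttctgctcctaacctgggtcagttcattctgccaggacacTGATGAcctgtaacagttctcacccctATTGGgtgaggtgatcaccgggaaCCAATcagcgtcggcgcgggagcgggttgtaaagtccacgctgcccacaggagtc
H2-Q10: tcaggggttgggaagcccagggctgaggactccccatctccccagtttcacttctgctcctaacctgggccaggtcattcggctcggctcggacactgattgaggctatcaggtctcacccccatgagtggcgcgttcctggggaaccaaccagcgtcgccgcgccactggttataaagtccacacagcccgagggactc

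The table of promoters held 25 of the 34 members, and the strings were counted in the 250 bases before the start on both strands. The kappa B string of enhancer A was found in 3 members, H2-D1, H2-K1 and H2-Q6, and in 0.0222% of the promoters of all 27025 genes (6 genes). The X box string was found in H2-Eb1 and H2-DMb1 and in 0.285% of all promoters. CCAAT was present in 21 of 25 members (15 of 17 class I and 6 of 7 class II) and in 34.5% of all promoters. TGATGA was present in 10 of 25 members and in 10.8% of all. Another string, the interferon response string (2 copies of GAAA with 2 bases between them), not capitalised, was found in B2m, H2-T22 and H2-T23 and in 3.04% of all promoters. The window of H2-Q10 held none of the 5 strings in these exact letters. A match is a description of the letters only.

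Levels are CPM, as the authors deposited them. A difference is that of log2(CPM + 1) between 2 libraries, on which changes of low genes look smaller than they are. A fold is the plain ratio of CPM, given with a 95% interval that covers counting error only. Of the 34 members, 25 averaged at least 10 CPM across the libraries (18 class I, 5 class II and both MHC-like genes), and a member was called at a 2-fold difference among these. The OGT-KO-labelled libraries were shifted as a whole: the median difference over the 8963 genes past the same filter was 0.51 with no recovery and 0.48 after 7 days. With each library scaled by its median ratio to a geometric mean library instead of equal totals, these medians became -0.19 and -0.18. Directions of modest differences therefore depend on the scaling, and differences are given below beside the all-gene median.

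The class II members past the filter were higher in the OGT-KO-labelled libraries by 3.63-fold to 12.5-fold over the 2 times, and class I genes were split. With no recovery, 14 of the 25 members past the filter were at least 2-fold higher, where 24.4% of all genes were, and 0 were at least 2-fold lower, where 5.69% were. The 14 comprised 5 of 5 class II members, 8 of 18 class I members and Mr1. H2-DMa, H2-Q1 and Mr1 were under 10 CPM in both controls and passed the filter through the OGT-KO-labelled libraries, so the filter favoured their call as higher. After 7 days 11 of 25 were at least 2-fold higher, again 5 of 5 class II members but 5 of 18 class I members and Mr1, beside 22.9% of all genes, and 0 were lower, beside 4.27%. Under median-ratio scaling 10.4% of all genes were higher and 15.4% lower with no recovery, and 10 members were higher (5 class II, 4 class I and Mr1) and 3 lower (Calr, Cd1d1 and H2-Q10). After 7 days that scaling gave 11.6% higher and 11.8% lower over all genes, with 7 members higher (5 class II, H2-Q1 and H2-Q6) and 0 lower.

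The median difference of the class II members past the filter was 2.62 with no recovery and 3.51 after 7 days. That of the class I members was 0.70 and 0.54, close to the all-gene medians of 0.51 and 0.48, and it turned negative under median-ratio scaling (-0.011 and -0.13). The class II median exceeded the class I median by 1.92 with no recovery and by 2.97 after 7 days, and by 1.93 and 2.97 under median-ratio scaling. Over every member without the filter the distance was smaller, 1.17 and 1.89. The 5 class II members all lay above the all-gene median at both times, whereas 10 of the 18 class I members did. Counting every member without the filter, 12 of 22 class I and 8 of 10 class II genes were at least 2-fold higher with no recovery, where 33.1% of all genes were. After 7 days these counts were 6 of 22 and 9 of 10, beside 32.3% of all genes. At either time 0 of the 34 were at least 2-fold lower, where 4.35% and 3.32% of all genes were.

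**Figure D1:**
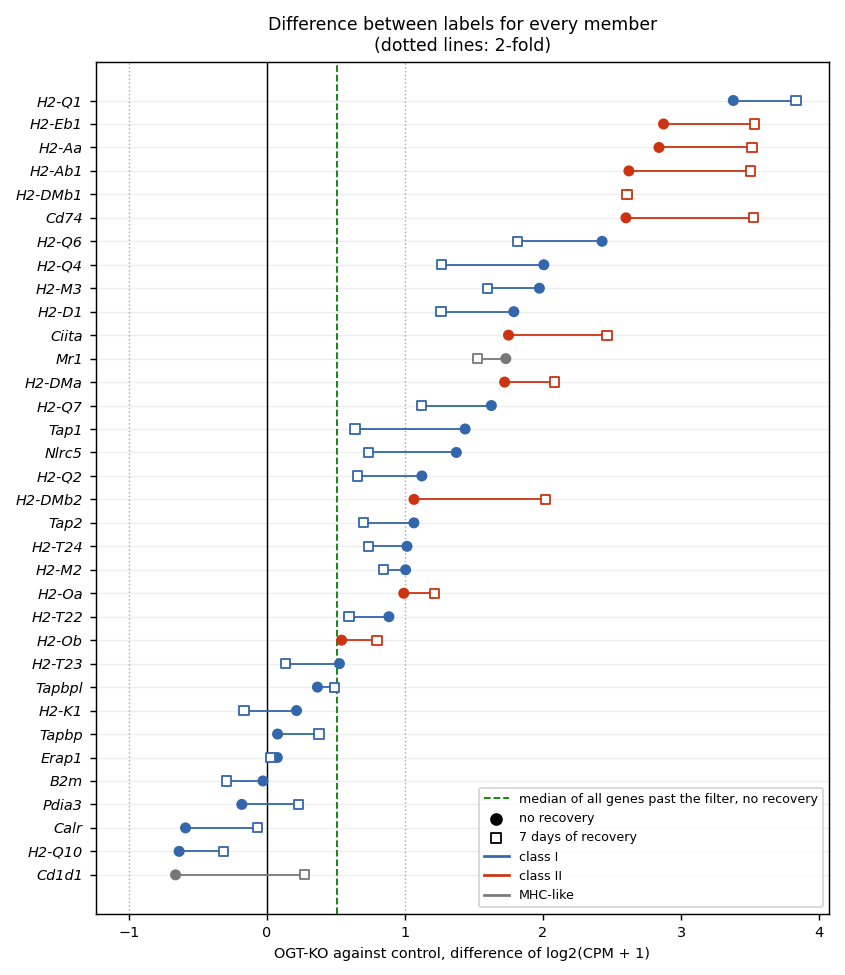
Difference of log2(CPM + 1) between the OGT-KO-labelled library and the control for each of the 34 members, with no recovery (filled circles) and after 7 days (open squares), coloured by class. H2-Q1, the 3 class II chains, H2-DMb1 and Cd74 sit farthest to the right with no recovery, and of these all but H2-DMb1 lie farther right after 7 days, while H2-Ob and H2-Oa lie left of several class I genes, most class I genes lie farther left after 7 days, and H2-Q10, Calr and B2m lie left of 0 at both times. The dashed line is the all-gene median with no recovery (0.51). Members past the filter that lie between 0 and about that line change side under median-ratio scaling. After 7 days H2-T22 (0.59) and Tap1 (0.64), to the right of the line, change side too.

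The class II alpha chain gene H2-Aa was at 23.9 CPM in the control and 177 CPM in the OGT-KO-labelled library with no recovery, and at 12.8 and 157 CPM after 7 days. H2-Ab1, its beta chain partner in the I-A molecule, was at 27.6 and 175 CPM, then at 13.6 and 165 CPM. H2-Eb1, the beta chain of I-E, was at 18.7 and 143 CPM, then at 10.9 and 136 CPM. All 3 chains were past 2-fold at both times, where 24.4% of all genes were at least 2-fold higher with no recovery and 22.9% after 7 days. Strains with the C57BL/6 haplotype carry a defective H2-Ea gene, so H2-Eb1 is there transcribed without its alpha chain partner, and H2-Ea was not analysed here.

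As folds, H2-Aa was 7.42-fold higher (6.76 to 8.15) with no recovery and 12.2-fold higher (10.8 to 13.9) after 7 days. The corresponding folds were 6.34 (5.81 to 6.93) and 12.1 (10.7 to 13.7) for H2-Ab1 and 7.66 (6.90 to 8.52) and 12.5 (10.9 to 14.5) for H2-Eb1. The 3 chains thus differed between labels to nearly the same extent after 7 days. The larger fold after 7 days came with lower controls, since the chains of the OGT-KO-labelled libraries were within 0.885 to 0.952 of their level with no recovery.

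Cd74, the invariant chain that blocks the class II groove until the endosome, was the most abundant class II member. It was at 74.2 CPM in the control and 455 CPM in the OGT-KO-labelled library with no recovery, and at 36.1 and 425 CPM after 7 days, 6.13-fold (5.82 to 6.47) and 11.8-fold (10.9 to 12.7) higher. Per kilobase of exon, Cd74 stood at 2.21 to 2.31 times H2-Ab1 in each of the 4 libraries, at 2.05 to 2.47 times H2-Aa and at 3.68 to 4.68 times H2-Eb1. For H2-Aa and H2-Eb1 the highest ratio was that of the control with no recovery.

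H2-DMa encodes the alpha chain of H2-DM, which swaps the invariant chain remnant for a peptide. It was at 6.92 and 25.1 CPM with no recovery and at 4.21 and 21.05 CPM after 7 days, 3.63-fold (3.02 to 4.38) and 5.0-fold (3.96 to 6.39) higher in the OGT-KO-labelled libraries. Its beta chain gene H2-DMb1, just under the filter with a mean of 9.67 CPM, was at 2.26 and 18.9 CPM, then at 1.75 and 15.8 CPM, and the second beta chain gene H2-DMb2 reached at most 3.86 CPM. DMb1 and DMb2 are close copies, so their split is uncertain. H2-Oa and H2-Ob, the chains of H2-DO that inhibits H2-DM and is best known from B cells, were low, with highest values of 1.55 and 2.22 CPM. H2-Oa had 3 reads in the control with no recovery and 2 in the control after 7 days, against 29 and 35 in the OGT-KO-labelled libraries, ratios of 8.99 (2.79 to 46.1) and 15.5 (3.98 to 133).

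Ciita, the class II transactivator, was under the filter in mean level. It was at 1.60 CPM in the control and 7.74 CPM in the OGT-KO-labelled library with no recovery, and at 0.701 and 8.37 CPM after 7 days. These are 4.84-fold (3.34 to 7.21) and 11.9-fold (6.95 to 22.3) higher levels. On the log2(CPM + 1) scale its differences were 1.75 and 2.46, below those of the chains. Its order over the 4 libraries was that of the chains at the low end, with the control after 7 days lowest.

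**Figure D2:**
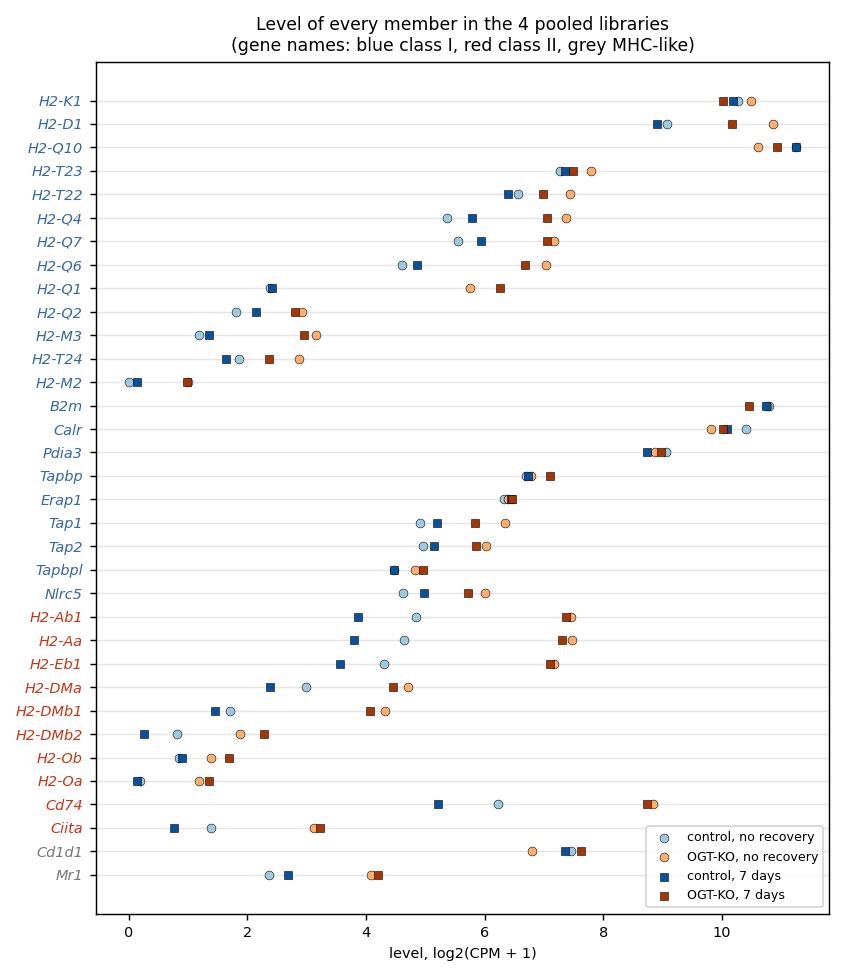
Level of each of the 34 members in the 4 pooled libraries, as log2(CPM + 1), with 1 point per library (light for no recovery, dark for 7 days, blue for control and orange for OGT-KO). The class II genes, with names in red, form 2 separate pairs of points by label, whereas the 4 points of H2-K1, B2m, Calr, Pdia3, Tapbp and Erap1 lie within about 1 unit. Several class I genes, among them H2-D1, H2-Q1, H2-Q4, H2-Q6 and H2-Q7, form such pairs too. How many genes of the whole table form such pairs was not counted.

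The classical (class Ia) heavy chains present peptides to CD8 T cells, and the pair differed. H2-K1 was at 1240 CPM in the control and 1439 CPM in the OGT-KO-labelled library with no recovery, and at 1160 and 1034 CPM after 7 days. H2-D1 was at 539 and 1863 CPM, then at 479 and 1149 CPM. H2-D1 was 3.46-fold (3.39 to 3.53) and 2.40-fold (2.34 to 2.46) higher at the 2 times, while H2-K1 was 1.16-fold (1.14 to 1.18) higher and then at 0.891 of the control (0.875 to 0.908), and below the control at both times under median-ratio scaling. Under that scaling H2-D1 differed by 1.07 with no recovery and by 0.58 after 7 days, where it was no longer past 2-fold. Per kilobase of exon, H2-D1 stood at 0.342 and 0.325 of H2-K1 in the controls and at 1.02 and 0.875 in the OGT-KO-labelled libraries, so that the pair was about level there. The sequences of the 2 genes are close, and how reads that match several class I genes were counted is not given in the sources used here.

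Among the class Ib genes, H2-Q10 was the 1 below the control at equal totals, where under median-ratio scaling H2-T23 was below it at both times and H2-T22 after 7 days. H2-Q10, the secreted class Ib chain of the liver, was at 2431 CPM in the control and 1564 CPM in the OGT-KO-labelled library with no recovery, and at 2437 and 1961 CPM after 7 days. Both OGT-KO-labelled libraries were below both controls, at 0.643 (0.635 to 0.652) and 0.805 (0.795 to 0.815) of them. Per kilobase it made up 49.8% and 51.0% of all 13 class I heavy chains in the controls, 25.6% in the OGT-KO-labelled library with no recovery and 37.8% in that after 7 days.

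The other H2-Q genes were higher in the OGT-KO-labelled libraries. H2-Q4 was at 40.1 and 164 CPM with no recovery and at 54.1 and 131 CPM after 7 days. H2-Q6 and H2-Q7 encode the lipid-anchored Qa-2 antigen; H2-Q6 was at 23.3 and 130 CPM, then at 28.0 and 101 CPM. H2-Q7 was at 45.6 and 143 CPM, then at 60.1 and 132 CPM.

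H2-Q1 had the largest difference of all members on the log2(CPM + 1) scale. It was at 4.19 CPM in the control and 52.9 CPM in the OGT-KO-labelled library with no recovery, and at 4.36 and 75.3 CPM after 7 days, 12.6-fold (10.2 to 15.9) and 17.3-fold (13.9 to 21.7) higher. It was also the only member of the H2-Q group whose difference was larger after 7 days, since H2-Q4, H2-Q6, H2-Q7, H2-Q2 and H2-Q10 were all closer to the control then. H2-Q2 reached at most 6.60 CPM. How reads that match several H2-Q genes were counted is not given in the sources used here, so their sum is given too. It hides the other course of H2-Q1. Without H2-Q10 the 5 genes summed to 116 and 496 CPM, then to 150 and 446 CPM. That was 4.29-fold (4.10 to 4.48) and 2.97-fold (2.85 to 3.10) higher, or 2.60-fold and 1.85-fold under median-ratio scaling.

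The H2-T genes differed less. H2-T23, which encodes Qa-1, the ligand of NKG2A receptors, was at 153 and 220 CPM with no recovery and at 163 and 179 CPM after 7 days, and it was below the control under median-ratio scaling at both times. H2-T22, a ligand of some gamma delta T cells, was at 93.6 and 174 CPM, then at 83.3 and 126 CPM, and after 7 days its direction also turned under that scaling. H2-T24 reached at most 6.34 CPM.

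The H2-M genes of class I were low. H2-M3, which presents formylated peptides of bacteria and mitochondria, was at 1.27 and 7.92 CPM, then at 1.55 and 6.74 CPM, 6.23-fold (4.14 to 9.72) and 4.34-fold (2.93 to 6.61) higher. H2-M2 had 0 reads in the control with no recovery, which allows up to 0.141 CPM, and 23 reads (1.01 CPM) in the OGT-KO-labelled library, at least 7.13-fold higher against that floor of 3 reads in 1 library. After 7 days H2-M2 had 2 and 22 reads, a ratio of 9.74 (2.39 to 85.4).

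**Figure D3:**
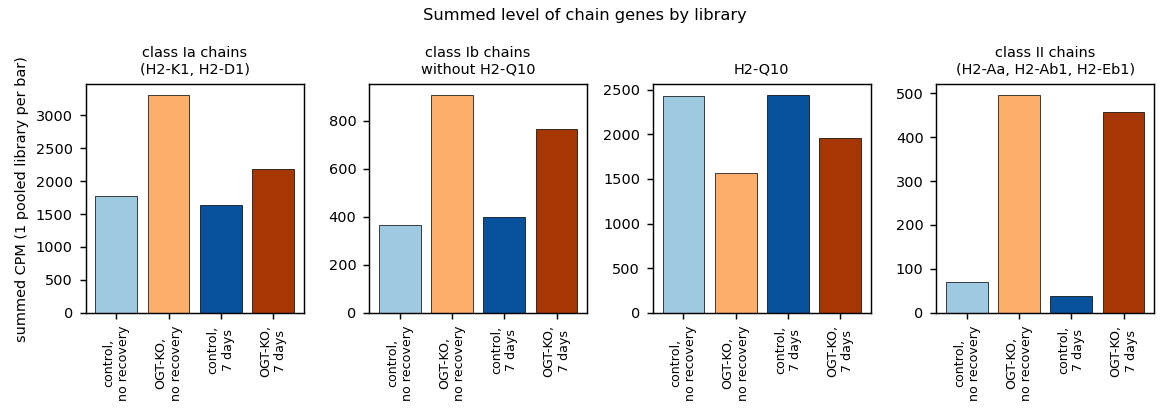
Summed CPM of the heavy chain genes in each pooled library, with 1 bar per library and a separate axis from 0 for each panel. Class II chains stood at 70.1 and 37.3 CPM in the controls and 495 and 458 CPM in the OGT-KO-labelled libraries, class Ib chains without H2-Q10 at 366 and 400 against 905 and 763, and H2-Q10 was lower in both OGT-KO-labelled libraries.

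As sums, the class Ia chains were at 1779 and 3302 CPM with no recovery and at 1638 and 2182 CPM after 7 days. That is 1.86-fold (1.83 to 1.88) and 1.33-fold (1.31 to 1.35) higher, and H2-D1 made up most of the difference with no recovery. Under median-ratio scaling the class Ia sum was 1.13-fold higher with no recovery and at 0.828 of the control after 7 days. The 3 class II chains summed to 7.06-fold (6.69 to 7.46) and 12.3-fold (11.4 to 13.2) the control, or 4.29-fold and 7.63-fold under median-ratio scaling. Per kilobase the class II chains stood at 5.48% of the class Ia chains in the control and 22.05% in the OGT-KO-labelled library with no recovery, and at 3.13% and 30.4% after 7 days.

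Between genes, levels were compared per kilobase of exon. In the controls the highest were B2m, H2-Q10, H2-K1 and Calr, and H2-Aa (21.2 and 11.4 CPM per kilobase) and H2-Ab1 (22.7 and 11.2) lay below H2-T22 (51.9 and 46.2). In the OGT-KO-labelled libraries H2-Aa (157 and 139) and H2-Ab1 (144 and 136) lay above H2-T22 (96.1 and 70.0), and Cd74 (322 and 300) lay above Pdia3 (170 and 180), which it was below in the controls (52.4 and 25.5 against 192 and 154). Which of H2-Aa and H2-Ab1 was the higher changed between libraries.

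B2m, the light chain shared by all class I molecules, had the highest level per kilobase of all members, with a mean of 1926 CPM per kilobase over the libraries. It was at 1769 and 1734 CPM with no recovery and at 1719 and 1402 CPM after 7 days. Its ratio to the control was 0.980 (0.966 to 0.994) and 0.815 (0.803 to 0.828), so the light chain was not higher where H2-D1 was.

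The peptide transporter genes were higher in the OGT-KO-labelled libraries. Tap1 was at 29.1 and 80.5 CPM with no recovery and at 35.8 and 56.3 CPM after 7 days, 2.76-fold (2.52 to 3.03) and 1.57-fold (1.43 to 1.72) higher. Tap2 was at 30.2 and 64.2 CPM, then at 34.4 and 56.6 CPM, 2.13-fold (1.94 to 2.34) and 1.65-fold (1.5 to 1.81) higher. Nlrc5, the class I transactivator, was at 23.8 and 63.1 CPM, then at 30.6 and 51.7 CPM, 2.65-fold (2.40 to 2.94) and 1.69-fold (1.53 to 1.86) higher. At equal totals each of the 3 was past 2-fold with no recovery and under it after 7 days. Under median-ratio scaling none was past 2-fold with no recovery, with differences of 0.73 (Tap1), 0.36 (Tap2) and 0.67 (Nlrc5). After 7 days the differences of Tap2 and Nlrc5 were close to 0 under that scaling (0.03 and 0.07), and that of Tap1 was -0.03.

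The remaining loading genes differed little. Tapbp (tapasin, which bridges the heavy chain and the transporter) was at 103 and 109 CPM with no recovery and at 105 and 136 CPM after 7 days. Tapbpl, a peptide editor related to tapasin, was at 21.1 and 27.5 CPM, then at 21.2 and 30.2 CPM. Erap1, the aminopeptidase that trims peptides in the endoplasmic reticulum, had the narrowest range of all members, at 79.0 and 83.3 CPM, then at 85.7 and 87.4 CPM. All 3 lay at or slightly above the control at equal totals and below it under median-ratio scaling.

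Calr and Pdia3 are general chaperones of the endoplasmic reticulum that also serve the loading complex. Calr (calreticulin) was at 1362 and 905 CPM with no recovery and at 1081 and 1032 CPM after 7 days, at 0.664 (0.652 to 0.676) and 0.954 (0.937 to 0.972) of the control. Pdia3 (ERp57) was at 533 and 470 CPM, then at 426 and 500 CPM. With both left out, the class I median difference with no recovery was 0.97 instead of 0.70.

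The MHC-like genes parted. Cd1d1, which presents lipids to natural killer T cells, was at 175 and 111 CPM with no recovery and at 162 and 196 CPM after 7 days, so that the OGT-KO-labelled library was lower at the first time, at 0.630 of the control (0.599 to 0.663). It was higher after 7 days by 1.21-fold (1.15 to 1.26), and lower at both times under median-ratio scaling. Mr1, which presents vitamin B metabolites to mucosal-associated invariant T cells, was at 4.14 and 16.0 CPM, then at 5.41 and 17.5 CPM, 3.88-fold (3.06 to 4.95) and 3.23-fold (2.60 to 4.03) higher. Mr1 was the member nearest above the filter, with a mean of 10.8 CPM.

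Between no recovery and 7 days few members were called. In the controls 0 of 25 members past the filter were at least 2-fold higher after 7 days, where 0.245% of all genes were, and 1 (Cd74) was at least 2-fold lower, where 0.960% were. In the OGT-KO-labelled libraries 0 were higher, beside 1.04% of all genes, and 0 lower, beside 0.435%. The class II members were lower after 7 days in the controls, with a median difference of -0.85, while in the OGT-KO-labelled libraries their median was -0.10. Cd74 in the control after 7 days was at 0.486 of its level with no recovery (0.445 to 0.531), H2-Ab1 at 0.494 (0.426 to 0.571), H2-Aa at 0.536 (0.460 to 0.625) and H2-Eb1 at 0.582 (0.491 to 0.688).

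Class I members showed another course. Their median difference over recovery was 0.03 in the controls and -0.23 in the OGT-KO-labelled libraries. In the latter, H2-D1 was at 0.617 (0.607 to 0.626) of its level with no recovery, H2-K1 at 0.719 (0.707 to 0.731) and Tap1 at 0.700 (0.651 to 0.752). H2-Q4 and H2-Q7 were higher after 7 days in the control, by 1.35-fold (1.23 to 1.48) and 1.32-fold (1.21 to 1.43), and lower in the OGT-KO-labelled library, at 0.801 and 0.923 of the earlier level. Cd1d1 was 1.77-fold (1.69 to 1.86) higher after 7 days in the OGT-KO-labelled library and at 0.923 (0.881 to 0.968) in the control. H2-Q10 did not differ between the controls beyond counting error and was 1.25-fold (1.24 to 1.27) higher in the later OGT-KO-labelled library. The label comparison and the time comparison share libraries, so their values are not independent.

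**Figure D4:**
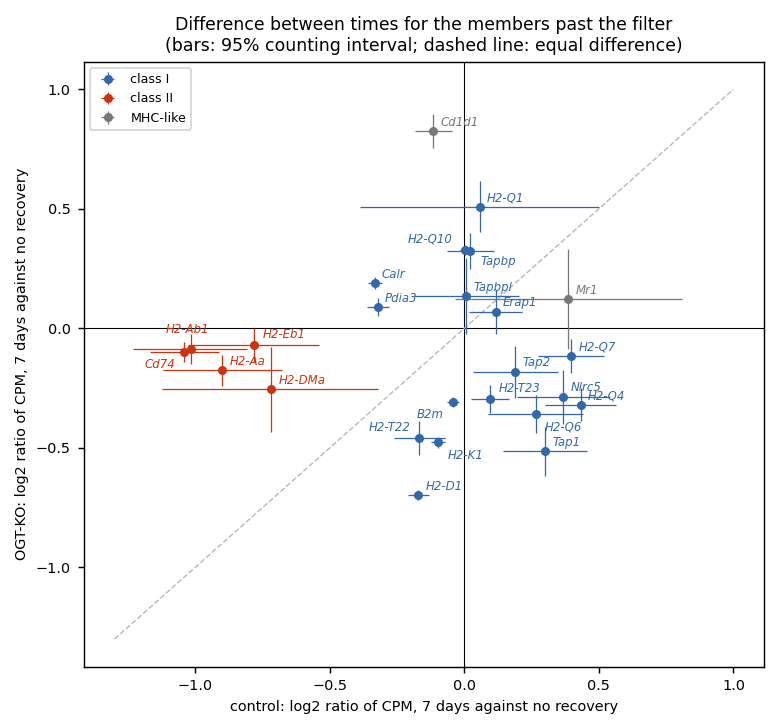
Log2 ratio of CPM, 7 days against no recovery, in the controls (horizontal) and in the OGT-KO-labelled libraries (vertical) for the 25 members past the filter, with bars for the 95% counting interval. Class II members lie to the left near a vertical value of 0, H2-D1, H2-K1, H2-T22 and B2m lie below 0 near the middle, and H2-Q4, H2-Q7, H2-Q6, Tap1 and Nlrc5 lie below 0 to the right.

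Other genes of the class I route, 15 listed and all past the filter, were near the all-gene median, with a median difference of 0.50 with no recovery and 0.43 after 7 days. With no recovery 2 of the 15 were at least 2-fold higher (Psmb9 and Thop1), after 7 days 1 (Thop1), beside 24.4% and 22.9% of all genes, and 0 were lower. The immunoproteasome subunits, which replace the constitutive ones after interferon gamma, differed in turn: Psmb9 was at 14.2 and 36.7 CPM, then at 17.9 and 28.8 CPM, with differences of 1.31 and 0.66. Psmb8 had differences of 0.98 and 0.40, and Psmb10 of 0.24 and 0.10. Psmb8 and Psmb9 lie beside Tap1 and Tap2 in the MHC and, like them, had the larger difference with no recovery. The most abundant genes of the list, the chaperones Hspa5 and Canx and the translocon subunit Sec61a1, had differences of -0.19, -0.22 and 0.43 with no recovery and -0.0013, 0.15 and 0.63 after 7 days. Thop1, a peptidase that degrades cytosolic peptides, had 1.28 and 1.51, and Lnpep, an aminopeptidase of cross-presentation, 0.79 and 0.79.

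Of the other class II route genes, 14 of 15 listed were in the table and 13 past the filter, and Ifi30 was not analysed here. With no recovery 6 of 13 were at least 2-fold higher and after 7 days 5, with 0 lower, beside 24.4% and 22.9% of all genes higher. The medians were 0.65 and 0.47, beside all-gene medians of 0.51 and 0.48. Ctss, the cathepsin that cuts the invariant chain, was at 28.0 and 207 CPM with no recovery and at 11.2 and 159 CPM after 7 days, 7.39-fold and 14.1-fold higher, and was the 1 gene of the list at least 2-fold lower over recovery in the controls, as Cd74 was among the members. Lgmn, an endosomal asparagine endopeptidase, had differences of 2.24 and 2.39. Cd63, a tetraspanin of late endosomes that is found in many cell types, had the largest, 5.28 and 4.93, from 3.72 and 3.35 CPM in the controls to 182 and 132 CPM. Cd63 passed the filter through the OGT-KO-labelled libraries, so the filter favoured its call as higher. The abundant genes of the list, Ctsb, Lamp1 and Ctsl, had 1.06, 0.30 and 1.58 with no recovery and 1.12, 0.12 and 0.47 after 7 days.

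Of 25 regulators of MHC genes, 21 were past the filter, with 7 at least 2-fold higher with no recovery, 5 after 7 days, 0 lower at either time and medians of 0.76 and 0.84. The share of all genes at least 2-fold higher was 24.4% and 22.9%, so the count after 7 days was near the background. The subunits of the RFX complex, which binds the X box, differed by 0.61 and 0.87 (Rfx5), 0.74 and 0.96 (Rfxank) and 0.21 and 0.24 (Rfxap). The interferon gamma receptor chains differed by 1.71 and 1.82 (Ifngr1) and by 1.03 and 0.66 (Ifngr2). Irf1, an interferon-induced transcription factor, differed by 0.80 and 0.95. Among those past the filter, the largest differences belonged to Spi1 (PU.1), at 2.26 and 2.93, and Irf8, at 2.00 and 2.50, factors made by myeloid cells and B cells. Spi1 and Irf8 were under 10 CPM in both controls, so the filter favoured their call as higher. Jak1, Stat2 and Rela, the most abundant, differed by 1.12, 0.41 and 0.71 with no recovery and by 0.91, 0.28 and 0.40 after 7 days.

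Of 10 costimulatory and coinhibitory ligands listed, 8 were in the table and 2 past the filter. Icam1, an adhesion ligand of T cells, differed by 2.05 and 1.83. Vsir, a coinhibitory ligand of myeloid cells, differed by 1.76 and 2.34. All 8 lay above the control at both times, but so did most genes of the table. Of all 13903 genes, 11137 lay above the control with no recovery and 11438 after 7 days.

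Leukocyte and macrophage marker sums moved with the class II genes, and their part in the class II result was not tested. In bulk liver, fewer cells of a type and less RNA per cell cannot be told apart. The 7 leukocyte markers (among them Ptprc, Laptm5 and Tyrobp) summed to 58.8 CPM in the control and 329 CPM in the OGT-KO-labelled library with no recovery. After 7 days they summed to 24.2 and 262 CPM. At both times 7 of 7 were at least 2-fold higher, beside 24.4% and 22.9% of all genes. All of them but Laptm5 were under 10 CPM in both controls and passed the filter through the OGT-KO-labelled libraries. The filter thus favoured their call as higher. The 12 Kupffer cell and macrophage markers summed to 410 and 1589 CPM, then to 160 and 1114 CPM, and 10 of the 11 past the filter were at least 2-fold higher at both times. In the controls 10 of these 11 were at least 2-fold lower after 7 days, as Cd74 was, where 0.96% of all genes were. The order of the 4 libraries was the same for the class II chains and for both marker sums. It was also that of the dendritic cell, B cell and endothelial marker sums given below, so it is not particular to these lists. The monocyte and neutrophil marker sums had another order, with the OGT-KO-labelled library after 7 days highest.

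The class II chains were also read against these sums. They stood at 1.19 times the leukocyte marker sum in the control with no recovery, 1.51 times in the OGT-KO-labelled library, and 1.54 and 1.74 times after 7 days. Against the macrophage marker sum they stood at 0.171 and 0.312, then at 0.233 and 0.411. Dendritic cell markers (9 genes) summed to 11.8 and 51.1 CPM, then to 9.21 and 46.1 CPM, with Ccr7 and Flt3 at 0 in the control after 7 days, and Itgax, which macrophages also express, gave 25.9 and 23.8 CPM of the sums in the OGT-KO-labelled libraries. The B cell markers stayed low: the 5 of 7 listed genes in the table summed to 3.48 and 9.31 CPM, then to 1.25 and 5.85 CPM, and Ms4a1 and Pax5 were not analysed here. T and NK cell markers (4 of 8 in the table, Cd8a at 0 in the control after 7 days) summed to 3.11 to 7.65 CPM, monocyte markers (5 of 6) to 6.16 and 62.8 CPM, then 4.91 and 86.7 CPM, and neutrophil markers (4 of 5) to 5.50 and 29.4 CPM, then 2.20 and 44.8 CPM.

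Markers of resident cells are given beside the all-gene shares of 24.4% higher with no recovery and 22.9% after 7 days. Bile duct cell markers (6 genes) summed to 54.1 and 1164 CPM, then to 70.7 and 1481 CPM. Spp1 alone gave 977 and 1245 CPM of the sums in the OGT-KO-labelled libraries. Stellate cell and myofibroblast markers (8 genes) summed to 175 and 1662 CPM, then to 124 and 1948 CPM. At both times 6 of 6 and 8 of 8 of these markers were at least 2-fold higher. Krt7, Krt19, Cldn7, Epcam, Acta2, Des and Hgf were under 10 CPM in both controls and passed the filter through the OGT-KO-labelled libraries. The filter thus favoured their call as higher. Endothelial markers (7 genes) summed to 236 and 448 CPM, then to 163 and 331 CPM, with 3 of 7 at least 2-fold higher with no recovery and 1 of 7 after 7 days. Lyve1, 1 of those 3, was also under 10 CPM in both controls. Hepatocyte markers were lower, at 80220 and 54630 CPM, then at 86520 and 67090 CPM, as H2-Q10 was, and 5 and 4 of 10 were at least 2-fold lower, where 5.69% and 4.27% of all genes were. None of these sums was used to adjust a member, and their part in the differences of the members was not tested.

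**Figure D5:**
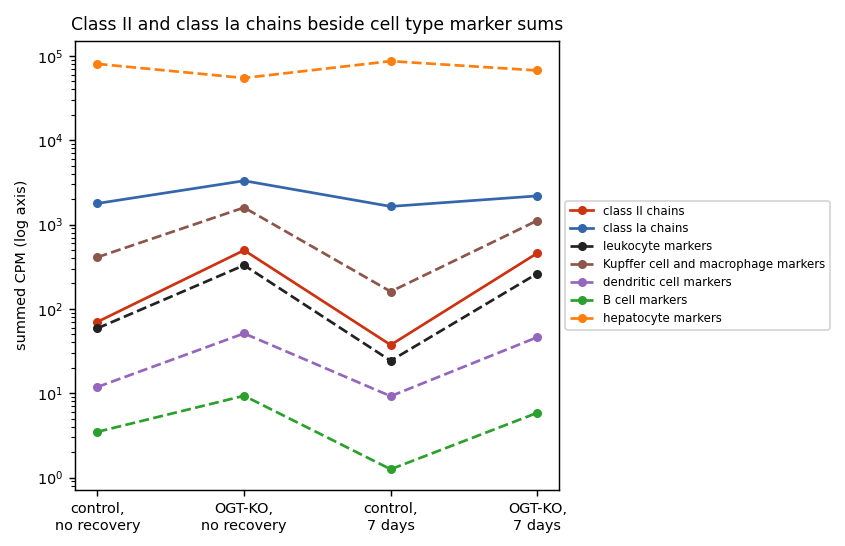
Summed CPM of the class II chains and class Ia chains (solid lines) and of cell type marker lists (dashed lines) in the 4 pooled libraries, on a log axis, with lines joining the points of 1 sum only to guide the eye. The class II chains run beside the leukocyte and macrophage sums (70.1, 495, 37.3 and 458 CPM against 58.8, 329, 24.2 and 262 CPM for leukocyte markers), the class Ia chains are flatter and the hepatocyte sum runs the other way. The dendritic cell and B cell sums lie lower and have the same order of libraries as the class II chains.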

How the data were processed

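RNA was isolated from liver with TRIzol, mRNA libraries were made with the Tecan universal plus kit, and the submitters' processing notes name STAR, DESeq2 and GRCm39. The authors deposited 1 table of CPM for the 4 libraries: the file is named for DESeq2 normalization, but each column sums to 1000000, and 100% of values were whole multiples of 1 read within 0.01 of a read, so whole reads were recovered for intervals. Strand handling and the counting of reads that match several genes are not given in the sources used here.

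Differences were those of log2(CPM + 1), called at 2-fold among genes averaging at least 10 CPM. With 1 library per condition no test between conditions was possible. Intervals are 95% exact Clopper-Pearson intervals of the reads. Exon lengths came from GENCODE M21 (GRCm38) by gene ID and promoters from RefSeq (GRCm38.p6), first start listed. March1, March8 and Nrd1 were matched by older symbols. Members and lists were chosen with earlier results of these data known. Every member was accounted for. From the other lists, the 3 genes with the highest mean, the 3 with the largest change past the filter and all Rfx, interferon gamma receptor, Irf1, Psmb8, Psmb9 and Psmb10 genes were named, 1 further regulator is not reported here, and of the cell type lists mainly the sums were given. Alternatives were a pseudocount of 0.1, no filter, median-ratio scaling, leaving out Calr and Pdia3, summing class Ib families and, chosen after the data were seen, an exact binomial test on the reads. Steps were tested on simulated reads. Python 3.11, numpy 2.4.6, pandas 2.3.3, scipy 1.17.1 and matplotlib 3.10.9 were used.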

Additional observations from a re-analysis of the deposited data

Results flagged for a closer look

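Some members moved in opposite directions in the 2 settings of 1 contrast, with both 95% counting intervals clear of 0. With 1 library per condition, no such difference was tested. The rule was run on the 34 members only, so no share of all genes stands beside the counts. At this depth counting intervals are narrow, and differences as small as 0.09 met the rule. Between labels, H2-K1 differed by 0.21 with no recovery and by -0.17 after 7 days on the log2(CPM + 1) scale, Pdia3 by -0.18 and 0.23, and Cd1d1 by -0.66 and 0.27. Under median-ratio scaling 0 of these 3 had opposite directions, since each lay below the control at both times.

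Between times, 11 members moved one way in the controls and the other way in the OGT-KO-labelled libraries. All 11 kept opposite signs under median-ratio scaling, where the rule on counting intervals was not applied again. The smallest of those differences was that of H2-Q7, at -0.04 in the OGT-KO-labelled libraries. Lower expression after 7 days in the OGT-KO-labelled libraries and higher expression in the controls was seen for H2-T23 (0.10 in the controls and -0.29), H2-Q4 (0.42 and -0.32), H2-Q7 (0.39 and -0.12), H2-Q6 (0.26 and -0.36), Tap1 (0.29 and -0.51), Tap2 (0.18 and -0.18) and Nlrc5 (0.35 and -0.28). These 7 are class I heavy chains, the peptide transporter and the class I transactivator. Other class I members went otherwise: H2-K1, H2-D1, H2-T22 and B2m were lower after 7 days under both labels. The opposite course was seen for Calr (-0.33 and 0.19), Pdia3 (-0.32 and 0.09), Cd1d1 (-0.11 and 0.82) and H2-DMb2 (-0.55 and 0.40), the last on 4 reads in the control after 7 days.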

How the results depend on the processing

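No paired analysis was possible because each condition has 1 pooled library. Of 74 values recomputed under the alternatives, 47 planned and 8 added ones stayed, 17 moved and 2 reversed. Median-ratio scaling reversed the class I median difference between labels, to -0.011 with no recovery and -0.13 after 7 days, moved the class II median to 1.92 (1.915) and 2.85 (2.845), put 3 members at least 2-fold lower with no recovery and 7 higher after 7 days, and left 0 lower over recovery in the controls. Without the filter the medians with no recovery were 1.01 (class I, or 1.04 with H2-M2 set against the floor of 3 reads) and 2.17 (class II), 1.17 apart. After 7 days the class II median was 2.54, at a distance of 1.89. Without Calr and Pdia3 the class I median with no recovery was 0.97, at a distance of 1.65. With the class Ib genes summed by family (H2-Q, H2-T and H2-M) it was 0.21, at a distance of 2.41, and after 7 days 0.32, with 7 members higher. The H2-Q family there included H2-Q10, its most abundant gene, unlike the H2-Q sum given above. A pseudocount of 0.1 put 2 members lower over recovery in the controls. The exact binomial test on the reads compares libraries and not conditions, and at this depth every gene past the filter and 2-fold also passed it, so it says nothing about stability. Depth gave class II members of the controls as few as 2 reads, and pools of 3 mice give no estimate of the spread between mice.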
